A study of Mus musculus with 4 samples.

Results

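Purkinje cell genes were examined in RNA bound to tagged ribosomes from the deep cerebellar nuclei of the mouse. They are 10 genes, taken by symbol: Itpr1, Car8, Calb1, Pcp4, Rgs8, Pcp2, Gng13, Aldoc, Ppp1r17 and Slc1a6. All 10 were found among the 32531 gene names of the count tables. The samples form 1 group of 4 immunopurified libraries from adult, untreated mice of the Slc17a6-TRAP line JX883, which carries EGFP fused to the ribosomal protein Rpl10a. Each library pooled tissue of 3 mice, so differences between single animals were not measured. In this method, translating ribosome affinity purification, polysomes that hold the tagged protein are captured with antibodies against EGFP and their RNA is sequenced. The line is named for Slc17a6, the vesicular glutamate transporter of nuclear projection neurons, and the labels do not list which other cells carry the tag. No library of input RNA, of untagged tissue or of Purkinje cells was used here, so neither enrichment nor the cell of origin of a transcript was measured.

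Purkinje cells are the GABAergic output neurons of the cerebellar cortex. Their cell bodies lie in the cortex and their axons end on neurons of the deep nuclei. Glutamate acting on their metabotropic receptors leads through Gq and phospholipase C to inositol trisphosphate (IP3), which releases calcium from internal stores, and a dense set of calcium-binding proteins buffers that signal. Several of the genes used to mark these cells, among them Itpr1, Calb1, Pcp4 and Aldoc, are known from other neurons or from astrocytes as well.

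Counts assigned to genes ranged from 9621762 to 10988373 per library, and levels are given as CPM, counts scaled to a library total of 1000000. A gene without a count may be present at up to 0.273 to 0.312 CPM, the level of 3 counts. Such limits and the intervals below cover counting error only. Slc17a6 stood at 2143 ± 153 CPM (SD, n = 4), and all 8 markers fixed for glutamatergic nuclear neurons reached 1 CPM in every library. Replicate 1 stood apart in Tcf7l2, a transcription factor listed among midbrain neuron markers, at 2486 CPM against 8.55 to 42 CPM in the others. Of the other 6 markers of that list, Pou4f1 was high there too (19.3 CPM against 0.182 to 0.485 CPM), but Otx2 and Lef1 were highest in replicate 3. In all, 4 of the 7 markers were highest in replicate 1, some of them at 1.66 CPM or less, 2 in replicate 3 and 1 in replicate 4. The mean of no Purkinje cell gene moved by more than 1.15-fold when replicate 1 was left out. Rn45s, the ribosomal RNA precursor, took 14.2% and 13.6% of the counts in replicates 2 and 3 and about 5% (4.99% and 4.92%) in replicates 1 and 4. In bulk RNA of this kind, fewer cells of a type and less RNA per cell cannot be told apart.

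The sequences upstream of 4 of the genes are shown because these genes cover the range from the abundant Rgs8 to Pcp4 at the detection limit, and because Rora, a nuclear receptor that Purkinje cells need to mature and that binds the letters AGGTCA, was itself present at 384 ± 77.7 CPM. They are from RefSeq on GRCm38.p6, the assembly of mm10, which had entries for 6 of the 10 genes, and end before the annotated gene. Capitals mark AGGTCA, or its reverse complement TGACCT. The regions are chr8:3625548-3625797 on the minus strand for Pcp2, chr16:96467356-96467605 on the plus strand for Pcp4, chr10:78780246-78780495 on the plus strand for Slc1a6 and chr1:153652787-153653024 on the plus strand for Rgs8.
Pcp2: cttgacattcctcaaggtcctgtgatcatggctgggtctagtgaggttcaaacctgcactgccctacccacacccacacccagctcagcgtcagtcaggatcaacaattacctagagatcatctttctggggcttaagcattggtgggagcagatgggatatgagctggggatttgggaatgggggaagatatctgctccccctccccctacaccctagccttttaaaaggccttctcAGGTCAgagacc
Pcp4: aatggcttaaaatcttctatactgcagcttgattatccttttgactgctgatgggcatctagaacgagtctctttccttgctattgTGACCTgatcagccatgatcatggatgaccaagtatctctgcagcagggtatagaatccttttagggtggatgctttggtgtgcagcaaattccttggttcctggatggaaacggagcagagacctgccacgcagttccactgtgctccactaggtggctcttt
Slc1a6: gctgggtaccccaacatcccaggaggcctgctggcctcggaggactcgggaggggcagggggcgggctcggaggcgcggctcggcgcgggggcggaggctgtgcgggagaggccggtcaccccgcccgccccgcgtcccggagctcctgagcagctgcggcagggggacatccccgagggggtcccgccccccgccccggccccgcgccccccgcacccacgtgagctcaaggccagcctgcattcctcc
Rgs8: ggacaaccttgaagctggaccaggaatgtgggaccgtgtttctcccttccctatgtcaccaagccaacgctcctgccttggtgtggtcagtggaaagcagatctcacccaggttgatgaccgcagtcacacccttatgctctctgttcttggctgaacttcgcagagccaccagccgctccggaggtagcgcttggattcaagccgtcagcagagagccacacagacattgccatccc
The motif was searched on both strands in up to 250 bases before each start site. The sequences of Rgs8, Aldoc and Gng13 had 12, 105 and 1 bases next to the start site left off, since they end before the annotated gene. It was found in 2 of the 6 genes with an entry, beginning 12 bases before the start site of Pcp2 and 164 bases before that of Pcp4, there on the opposite strand. Of all 32851 promoter windows of 250 bases, 14% held it. Pcp2 and Pcp4 are 2 of the scarce genes below, and no relation between the letters and the level was tested. A match is a description of the sequence, not a bound site.

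The genes fell into an abundant set and a scarce set. Itpr1, Rgs8, Aldoc and Car8 stood between 293 and 886 CPM on average and made up 95.6 to 96.8% of the counts of all 10 genes in each library. Calb1 and Ppp1r17 were intermediate, at 40.7 ± 13.2 and 21.8 ± 15.2 CPM. Pcp2, Slc1a6, Gng13 and Pcp4 had means from 0.529 to 6.99 CPM. Together the 10 genes took 0.159, 0.195, 0.373 and 0.138% of all counts in replicates 1 to 4.

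**Figure D1:**
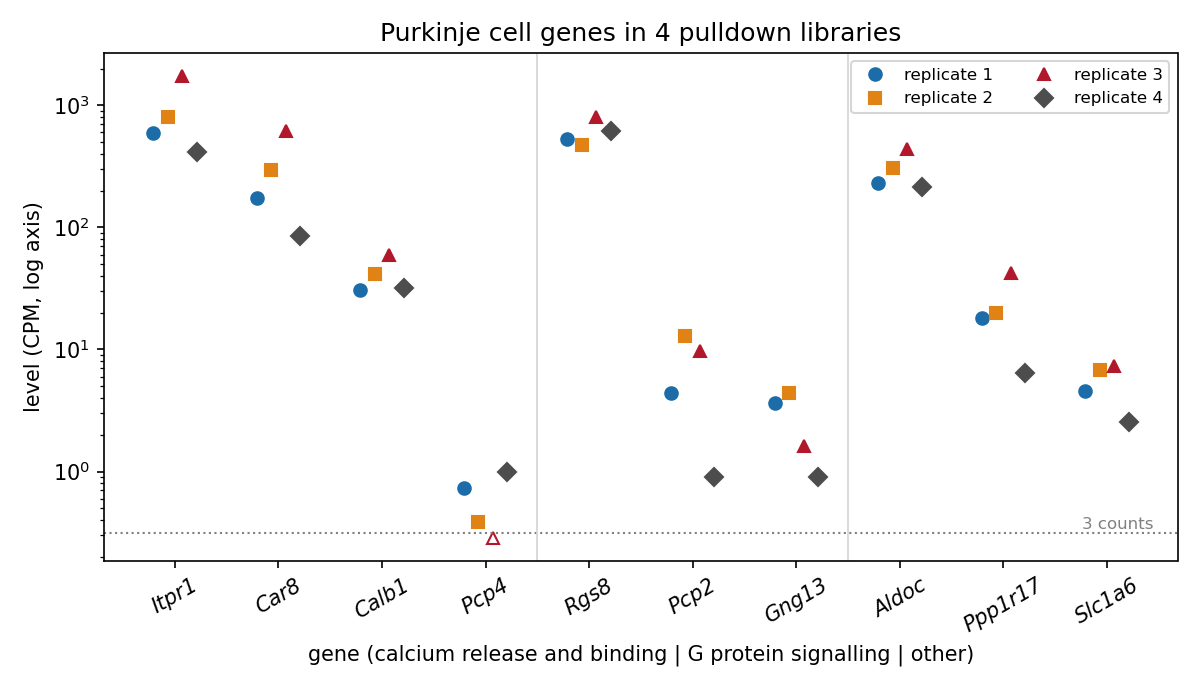
Level of each Purkinje cell gene in CPM on a log axis, 1 symbol per library, grouped by role. The dotted line is the level of 3 counts in the shallowest library, and the open symbol is the Pcp4 library without a count, drawn at its own limit. For 7 of the 10 genes the red triangle of replicate 3 is the highest symbol.

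Among the genes of calcium release and binding, Itpr1 encodes the IP3 receptor through which calcium leaves the endoplasmic reticulum (mm10 chromosome 6, 108213096 to 108551109, plus strand). It stood at 591, 796, 1738 and 417 CPM in replicates 1 to 4. Replicate 3 was the highest library and replicate 4 the lowest, 4.17-fold apart. Car8 is a carbonic anhydrase-related protein without enzyme activity that binds the IP3 receptor (chromosome 4, 8143362 to 8239041, minus strand). Its levels were 173, 294, 621 and 84.6 CPM, the same order of libraries over a 7.34-fold range. Without replicate 3 the mean of Car8 was 184 CPM in place of 293 CPM.

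Calb1, the calcium buffer calbindin, stood at 30.5, 41.8, 59 and 31.6 CPM (chromosome 4, 15881264 to 15908064, plus strand). Replicate 3 was again highest, but replicates 1 and 4 were alike. Pcp4, a small calmodulin-binding protein, had 7, 4, 0 and 11 counts, or 0.728, 0.388, 0 and 1 CPM (chromosome 16, 96467606 to 96525793, plus strand). Its 0 in replicate 3 allows up to 0.287 CPM as the level of 3 counts, or up to 0.353 CPM by the 95% exact binomial interval. The 95% exact binomial interval of the highest library, replicate 4, was 0.5 to 1.79 CPM and overlapped that of replicate 1, 0.292 to 1.5 CPM. Part of the Pcp4 exons, 23.7% of their bases, is shared with Igsf5 on the same strand.

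Of the G protein genes, Rgs8 speeds the switching off of G protein alpha subunits (chromosome 1, 153653025 to 153700323, plus strand). It stood at 534, 469.8, 808 and 617 CPM. Its 1.72-fold range was the narrowest of the 10 genes, and replicate 2, not replicate 4, was its lowest library. Pcp2 (also called L7) binds Gi and Go alpha subunits and is the gene most often used to mark Purkinje cells (chromosome 8, 3623371 to 3625545, minus strand). It had 42, 134, 101 and 10 counts, or 4.37, 13, 9.68 and 0.91 CPM. Counting intervals of replicate 4 (0.436 to 1.67 CPM) and replicate 1 (3.15 to 5.9 CPM) did not overlap each other or that of replicate 2 (10.9 to 15.4 CPM). Gng13, a gamma subunit, stood at 3.64, 4.37, 1.63 and 0.91 CPM (chromosome 17, 25717171 to 25719406, plus strand). It was the scarce gene in which replicates 1 and 2 exceeded replicates 3 and 4.

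The counts of Pcp2 and Gng13 are uncertain because 51.5% of the Pcp2 exon bases lie over exons of Pet100, and 51.6% of those of Gng13 over exons of Chtf18, each on the opposite strand. Whether the counting used strand is not given in the sources used here. Pet100 stood at 4.01 ± 1.86 CPM and Chtf18 at 0.565 ± 0.89 CPM. With the shared bases taken out of the length, the log2 ratio of Calb1 to Gng13 changed from 1.19 to 0.14 and that of Pcp2 to Slc1a6 from 0.26 to 1.30.

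The other genes have unrelated functions. Aldoc, or zebrin II, is the aldolase that divides Purkinje cells into stripes and is also made by astrocytes (chromosome 11, 78322968 to 78327781, plus strand). It stood at 232, 308, 439 and 215 CPM, a 2.04-fold range. Ppp1r17, a phosphatase inhibitor activated by cGMP-dependent kinase, stood at 18, 19.9, 42.7 and 6.46 CPM, a 6.61-fold range (chromosome 6, 56017497 to 56032689, plus strand). Slc1a6, the glutamate transporter EAAT4 of Purkinje cell spines, stood at 4.57, 6.79, 7.28 and 2.55 CPM (chromosome 10, 78780496 to 78814765, plus strand). All 3 had replicate 3 as the highest and replicate 4 as the lowest library.

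Levels of different genes were compared per kilobase of exon (CPM per kb), within each library, as log2 ratios with 0.5 CPM added. The order was Aldoc at 91.5 ± 31.3, Rgs8 at 63 ± 15.2, Car8 at 76.1 ± 61, Itpr1 at 48.3 ± 32.2, Ppp1r17 at 12.4 ± 8.64, Calb1 at 8.4 ± 2.73, Gng13 at 3.41 ± 2.11, Pcp2 at 3.82 ± 2.95, Slc1a6 at 2.46 ± 1.01 and Pcp4 at 0.516 ± 0.422 CPM per kb. It follows the mean log2 level, so Rgs8 precedes Car8 and Gng13 precedes Pcp2. Slc17a6, at 397 ± 28.4 CPM per kb, was above all 10 in every library, by 4.5-fold over Aldoc to 131-fold over Pcp2, 157-fold over Slc1a6 and 427-fold over Pcp4 on that scale. Itpr1, first in CPM, followed Aldoc, Rgs8 and Car8 per length, with 18.3 kb of exon in all. With the longest transcript as its length it came directly after Aldoc.

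**Figure D2:**
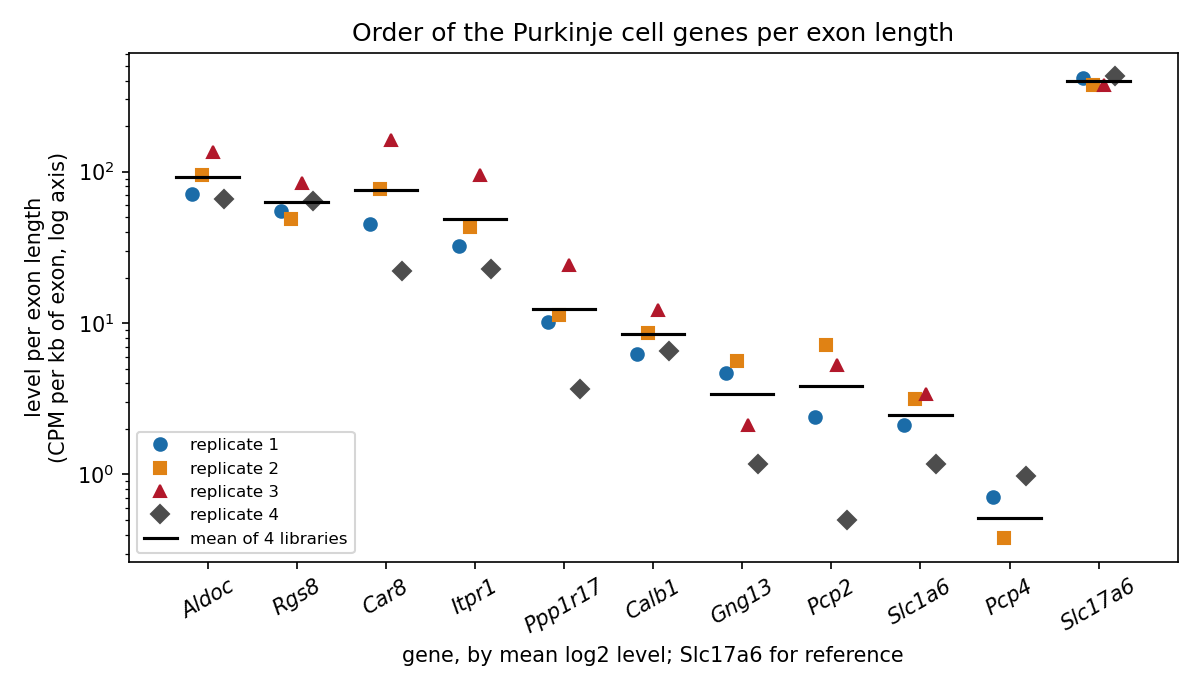
Level per kilobase of exon on a log axis for the 10 genes, ordered by mean log2 level, with Slc17a6 for reference. Symbols are libraries and bars are means. The Pcp4 library without a count is not drawn. Aldoc, Rgs8, Car8 and Itpr1 overlap one another and lie above Gng13, Pcp2, Slc1a6 and Pcp4, and below Slc17a6.

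Of the 45 pairs among the 10 genes, 35 had the same direction in all 4 libraries, and in each of these the mean log2 ratio exceeded its SD. With 4 libraries no pair can pass 0.05 in an exact two-sided sign-flip test, so the directions and their spread are given without a test. Among neighbours in the order, Aldoc and Rgs8 differed by a log2 ratio of 0.51 ± 0.40, Itpr1 and Ppp1r17 by 2.0 ± 0.38 and Calb1 and Gng13 by 1.19 ± 0.96, each in 4 of 4 libraries. The step between Itpr1 and Ppp1r17 separated the 4 abundant genes from the rest. Rgs8 and Car8 (0.06 ± 1.12), Gng13 and Pcp2 (0.25 ± 1.06) and Pcp2 and Slc1a6 (0.26 ± 0.85) did not differ beyond their spread. Nor did Ppp1r17 and Calb1 (0.35 ± 0.76). Car8 and Itpr1 (0.50 ± 0.39) and Slc1a6 and Pcp4 (1.45 ± 1.27) had means above their SD, but the direction held in only 3 of 4 libraries. Without replicate 1 or without replicate 4, Car8 preceded Rgs8 and Pcp2 preceded Gng13. Without replicate 2, Slc1a6 preceded Pcp2.

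Proportions between the genes were not constant across libraries. Per exon length, Itpr1 was 13.5, 6.11, 17.9 and 45.7 times Pcp2 in replicates 1 to 4. Rgs8 was 23.2, 6.85, 15.8 and 129 times Pcp2, an 18.8-fold range that rests in large part on the 10 Pcp2 counts of replicate 4. By contrast, Itpr1 was 0.717, 0.569, 0.588 and 1.04 times Car8, and Ppp1r17 was 0.227, 0.148, 0.151 and 0.167 times Car8. The proportions of Itpr1 and Ppp1r17 to Car8 thus varied 1.82-fold and 1.53-fold, while each of these genes varied 4.17-fold or more. These are 4 of the 10 ratios computed and were singled out after their values were seen.

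Replicate 3 was the highest library for 7 of the 10 genes (Itpr1, Car8, Calb1, Rgs8, Aldoc, Ppp1r17 and Slc1a6). Of the 13656 genes with a mean of at least 1 CPM, 25.7% had their highest level there. Pcp2 and Gng13 were highest in replicate 2 (16.2% of all genes) and Pcp4 in replicate 4 (24.2%). Replicate 4 was the lowest for 7 of the 10, against 38.1% of all genes, and replicate 3 for Pcp4 alone, against 28.1%. The full order of replicates 3, 2, 1 and 4, from high to low, was seen in 5 genes (Itpr1, Car8, Aldoc, Ppp1r17 and Slc1a6) and in 6.82% of all genes. That order was noticed in the data. With TMM-scaled totals, which shift the log2 level of replicate 1 by -0.15 and of replicate 4 by 0.12, Aldoc left both of the latter counts and they became 6 and 4 (32.4% and 7.15% of all genes). Among the 8845 genes with a mean of at least 10 CPM the median range was 1.97-fold. Of the 6 Purkinje cell genes at that level, Car8 had a wider range than 97.3% of all, Ppp1r17 than 96.6% and Itpr1 than 90.4%, whereas Aldoc (53.7%), Calb1 (48.5%) and Rgs8 (35.2%) were ordinary.

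To ask whether any gene set 1 library apart, each library was compared with the other 3 by edgeR's quasi-likelihood test on counts, with Benjamini-Hochberg adjustment over 15083 genes. No Purkinje cell gene passed 0.05 in any of the 4 comparisons. All genes together gave 3, 0, 0 and 7 calls, or 0.0199%, 0%, 0% and 0.0464% of those tested in replicates 1 to 4. The 7 calls of replicate 4 were 6 higher (0.0398%) and 1 lower (0.00663%). Every one of the 10 genes was tested, but Pcp2, Pcp4 and Gng13 would not pass a filter that asks for counts in all libraries. In replicate 3, 3 of the 10 had an unadjusted p under 0.05 against 7.01% of all genes. These were Itpr1 with a log2 fold change of 1.58 (SE 0.43, adjusted p = 0.4), Car8 with 1.81 (SE 0.50, adjusted p = 0.4) and Ppp1r17 with 1.60 (SE 0.61, adjusted p = 0.603). In replicate 4, 3 of the 10 did so against 14.7% of all genes. These were Pcp2 with -3.17 (SE 1.15, adjusted p = 0.256), Car8 with -1.98 (SE 0.79, adjusted p = 0.329) and Ppp1r17 with -1.92 (SE 0.72, adjusted p = 0.267).

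In replicates 1 and 2 no gene of the 10 reached an unadjusted p under 0.05, against 3.3% and 0.517% of all genes. The median log2 fold change of the 10 genes was 0.76 in replicate 3 and -1.17 in replicate 4, beside medians over all tested genes of -0.10 and -0.16. DESeq2 called 25, 5, 91 and 427 genes in replicates 1 to 4. Of the 10 genes it called 0 in replicates 1, 2 and 3 and 1 in replicate 4, Car8 (log2 fold change -1.97, adjusted p = 0.0269). It gave no adjusted p for 1 of the 10 in replicate 3 and for 1 in replicate 4. Without a low-count filter, edgeR called 86 genes in replicate 3 and 416 in replicate 4, and Car8 was among them, as higher in replicate 3 (1.81, adjusted p = 0.0148) and lower in replicate 4 (-1.98, adjusted p = 0.00229). It was called as higher in replicate 3 when replicate 2 was left out as well (2.35, adjusted p = 0.0463). The sample titles number the libraries 1300, 1301, 1302 and 1476 for replicates 1 to 4, without saying what the numbers stand for. The labels do not say that the pools came from separate litters or days, so these p-values measure only the spread between libraries.

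Some marker lists of other cells were also highest in replicate 3, the highest library for 25.7% of the genes with a mean of at least 1 CPM. The 6 genes listed for inhibitory nuclear neurons summed to 116, 181, 372 and 73.8 CPM in replicates 1 to 4, and 4 of the 6 had the order of replicates 3, 2, 1 and 4. Nearly all of that sum was Gad1, Gad2 and Slc32a1 (91.1, 239 and 29.3 CPM in replicate 3). Purkinje cells make these genes of GABA synthesis and release as well, so the sum does not separate inhibitory nuclear neurons from Purkinje cells. The remaining gene with that order stood at 1.77, 1.84, 9.87 and 0 CPM in replicates 1 to 4 and added little to the sum. Granule cell markers summed to 814, 1252, 1997 and 977 CPM, and all 7 were highest in replicate 3. Astrocyte and Bergmann glia markers summed to 390.5, 553, 843 and 513 CPM, with 7 of 9 highest in replicate 3, and oligodendrocyte markers to 471, 729, 1150 and 996 CPM, with 3 of 6. All 7 granule cell markers, 7 of the 9 astrocyte, 6 of the 6 oligodendrocyte and 3 of the 6 inhibitory neuron markers reached 1 CPM in every library. The granule cell, astrocyte and oligodendrocyte sums were lowest in replicate 1, not in replicate 4. Microglia markers summed to 3.85, 4.85, 11.5 and 10.6 CPM, with 2 of 5 highest in replicate 3 and 2 in replicate 4. Only 1 of the 5 reached 1 CPM in every library. The sums of some other marker lists did not peak in replicate 3. Markers of molecular layer interneurons and Golgi cells summed to 214, 282, 252 and 229.6 CPM, with 2 of 6 highest in replicate 3. Those of unipolar brush cells summed to 105, 125, 106 and 95.7 CPM, with 2 of 4 highest in replicate 3. Of these, Calb2 was low in replicate 3 (27.2 CPM against 67.1 to 88.2 CPM) and weighed on the sum. The pan-neuronal sum was lowest in replicate 3 (20548 CPM) and highest in replicate 4 (28489 CPM), where 1 gene alone was 24379 CPM. Of the 6 pan-neuronal genes, 3 were highest in replicate 4, 2 in replicate 2 and 1 in replicate 3. The 8 glutamatergic nuclear neuron markers summed to 2498 to 3056 CPM, of which Slc17a6 alone was 2011 to 2309 CPM. Others of that list varied more, Tbr1 by 11-fold and Irx3 by 4.37-fold, and 1 of the 8 was highest in replicate 3. The part of these cells in the levels of the Purkinje cell genes was not tested.

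**Figure D3:**
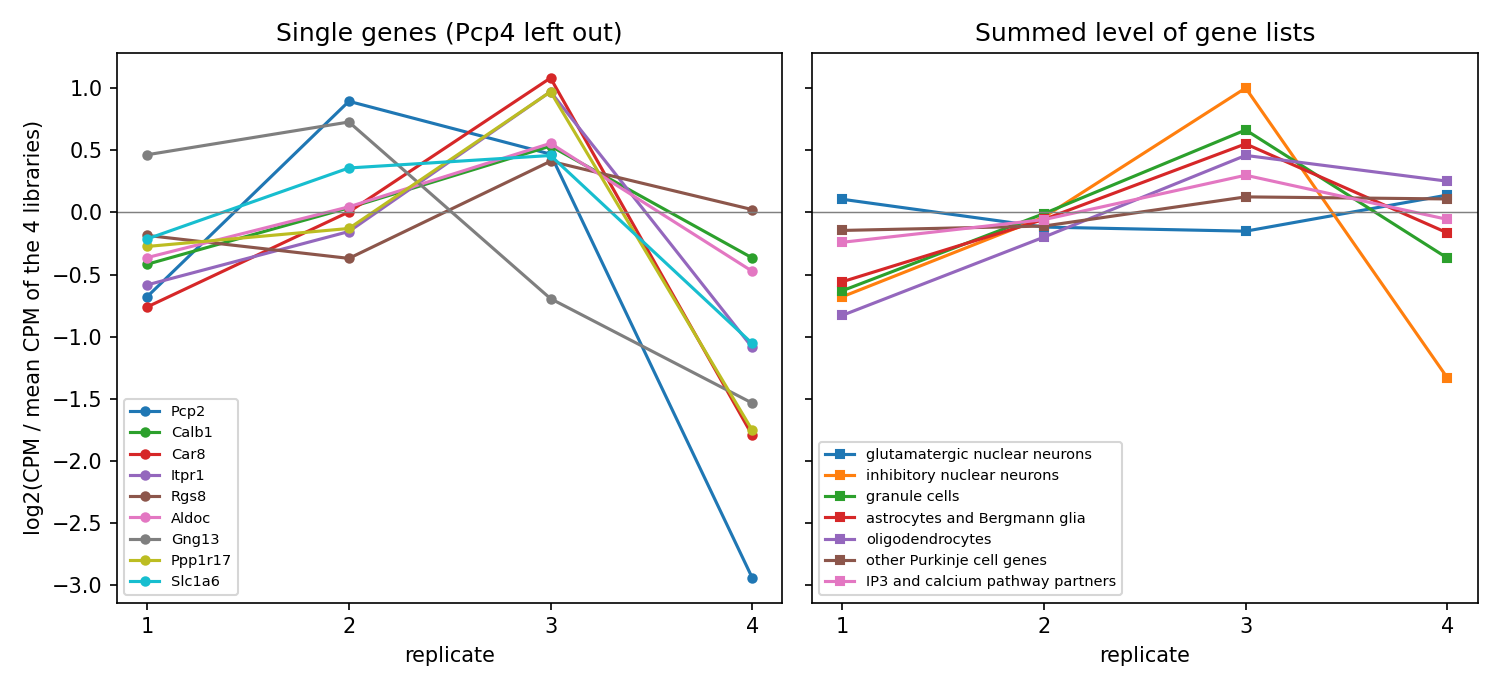
Left, log2 of each Purkinje cell gene's CPM over its mean of the 4 libraries, by replicate (Pcp4, with a library at 0, is left out; lines join values of 1 gene and imply no order of libraries). Right, the same for the summed CPM of gene lists. Most genes and the inhibitory neuron, granule cell and glial lists peak in replicate 3, while the glutamatergic nuclear neuron list, mostly Slc17a6, stays near 0.

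The profile of Itpr1 over the 4 libraries was set beside those of the 8844 other genes with at least 10 CPM, by the root mean square difference of log2 levels centred on each gene's mean. Among the 5 closest were Hic2 (0.06), Gad2 (0.08) and Pitpnm1 and Lin52 (0.09 each). Gad2, a GABA-synthesising enzyme, stood at 72.2, 114, 239 and 57.1 CPM, the same order of libraries as Itpr1. The closest to Pcp2 were Timm17b (0.23), Star (0.30), Tril and Pcbp4 (0.35 each) and Myt1 (0.37). Over 4 libraries many genes can lie this close, so the likeness is a description.

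The partners of Itpr1 in the IP3 and calcium pathway were broadly present, with 13 of 16 genes at 1 CPM or more in every library. Atp2a2, the pump that refills the calcium store, led per exon length at 157 ± 44.6 CPM per kb, followed by Atp2b2, a calcium pump of the cell membrane, at 56 ± 13 CPM per kb. Gnaq, the Gq alpha subunit, stood at 51.9 ± 9.31 CPM per kb. The phospholipase genes were far apart, with Plcb4 at 50.6 ± 11.2 and Plcb3 at 0.755 ± 0.554 CPM per kb. In the cortex Plcb3 follows the Aldoc stripes and Plcb4 the stripes between them. Homer3, a scaffold that binds the IP3 receptor, stood at 0.927 ± 0.542 CPM per kb. Ryr1, a calcium release channel of another family, was lowest at 0.199 ± 0.182 CPM per kb. No partner was called by DESeq2 or by edgeR, with or without the low-count filter, in any library comparison. At an unadjusted p under 0.05 by edgeR there were 1, 0, 2 and 4 of the 16 in replicates 1 to 4, against 3.3%, 0.517%, 7.01% and 14.7% of all genes. In replicate 3, 11 of 16 were highest, against 25.7% of the genes with a mean of at least 1 CPM. The median log2 fold change of the partners there was 0.65, beside -0.10 over all tested genes.

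A further list of 18 Purkinje cell genes was uneven. Dner, a Notch ligand of Purkinje dendrites, at 53 ± 15.3 and Rora at 29.3 ± 5.94 CPM per kb were among its 3 highest. The transcription factors Skor2, Lhx5 and Lhx1, which Purkinje cells keep from early development, were near the other end at 0.146 ± 0.109, 0.458 ± 0.529 and 1.89 ± 1.8 CPM per kb. Skor2 had 3, 4, 10 and 2 counts in replicates 1 to 4, and Lhx5 had 4, 12, 34 and 1. Both were highest in replicate 3 and lowest in replicate 4, as was Lhx1 with 34, 72, 190 and 22 counts. Arhgef33, with 57, 82, 183 and 1 counts, had the same order. In all, 11 of the 18 were highest in replicate 3, against 25.7% of the genes with a mean of at least 1 CPM. The order of replicates 3, 2, 1 and 4 was seen in 7 of them, against 6.82% of those genes. The list summed to 1529, 1567, 1844 and 1823 CPM in replicates 1 to 4, so its sum was nearly equal in replicates 3 and 4.

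Other genes of that list had other patterns. Foxp2, a forkhead factor, stood at 171, 36.2, 18.9 and 134 CPM, lowest where Itpr1 was highest. Ebf2 stood at 78.2, 77.8, 63.3 and 199.8 CPM, highest in replicate 4, and Doc2b, a calcium sensor of vesicle release, at 90.2, 82, 25.3 and 202 CPM. By edgeR none of the 17 tested genes was called in any comparison with the low-count filter, with 4 at an unadjusted p under 0.05 in replicate 3 (7.01% of all genes) and 4 in replicate 4 (14.7%). DESeq2, and edgeR without that filter, called Foxp2 and Doc2b in replicate 3, among 91 and 86 genes in all, and Ebf2, Arhgef33 and Doc2b in replicate 4, among 427 and 416. The median log2 fold change of the list was 0.50 in replicate 3 and -0.24 in replicate 4, beside -0.10 and -0.16 over all tested genes.

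Each gene was then set beside its relatives. Itpr1 exceeded Itpr2 by a log2 ratio per exon length of 6.75 ± 1.06 and Itpr3 by 6.98 ± 1.22, in 4 of 4 libraries. Rgs8 exceeded all 5 relatives fixed for it in 4 of 4 libraries, from Rgs4 (1.41 ± 0.67) and Rgs2 (1.43 ± 0.85) to Rgs16 (3.74 ± 0.91), Rgs3 (4.92 ± 0.72) and Rgs5 (4.98 ± 0.96). Pcp2 exceeded Gpsm1, another gene with the GoLoco motif that binds Gi alpha subunits, by 1.35 ± 0.52, although without division by length Gpsm1 was the higher. Gpsm2 and Gpsm3 had libraries without a count.

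Car8 and its fellow inactive carbonic anhydrase Car10 were not told apart, with a log2 ratio of 0.34 ± 1.61 that ran from -1.53 in replicate 4 to 2.21 in replicate 3. Car10 had its levels in the opposite order to Car8 (345, 249, 221 and 404 CPM in replicates 1 to 4), and each was the higher in 2 of 4 libraries. The direction also turned with the longest transcript as length, without division by length and without replicate 3. Car11, the remaining inactive member, was below Car8 in 3 of 4 libraries (1.53 ± 1.70). Of the active enzymes, Car2 lay below Car8 by 0.97 ± 0.48, Car4 by 4.72 ± 0.66 and Car7 by 5.02 ± 0.46.

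**Figure D4:**
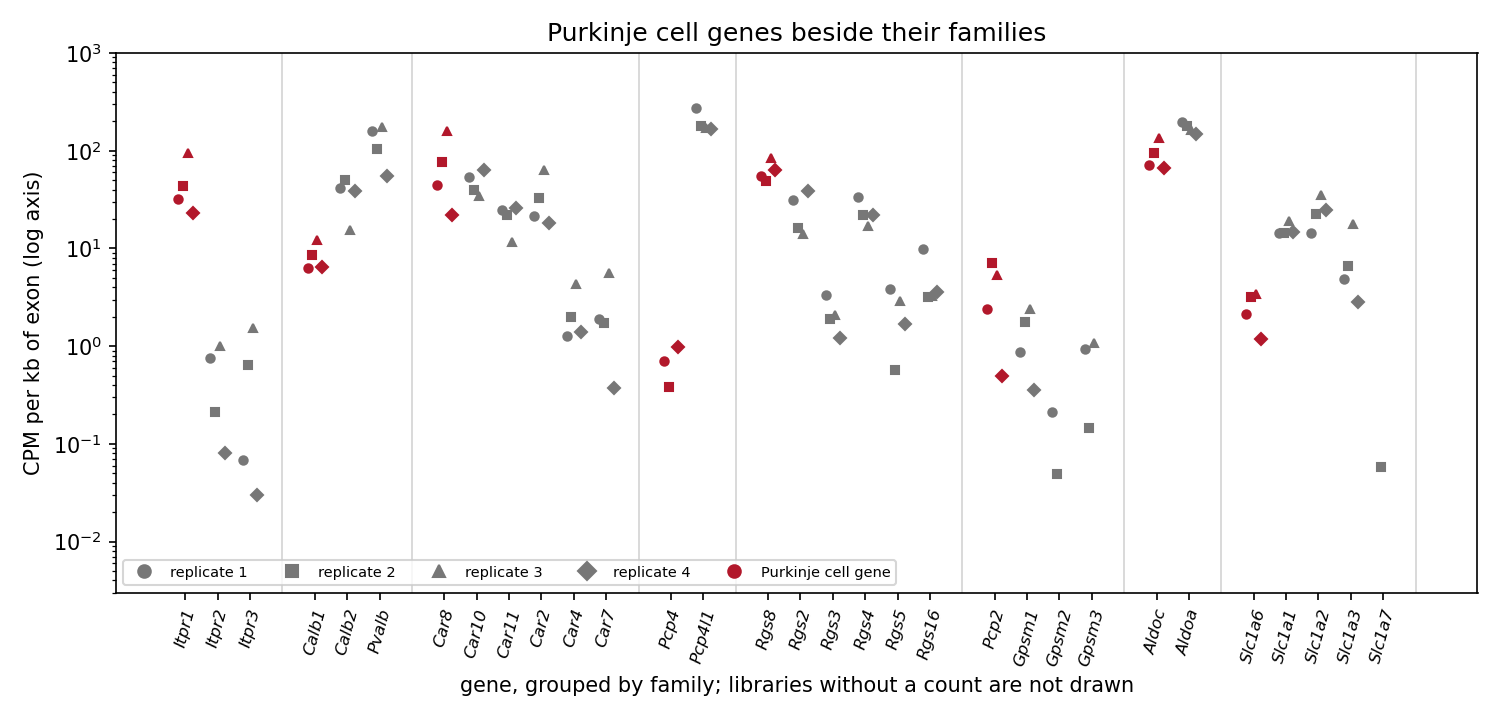
Level per kilobase of exon on a log axis for 8 of the Purkinje cell genes (red) and relatives (grey), 1 symbol per library. Libraries without a count are not drawn. Itpr1 and Rgs8 lie above their relatives in each library, whereas Calb1, Pcp4, Aldoc and Slc1a6 lie below at least 1 relative in each library.

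The remaining genes were exceeded by relatives. Pcp4 lay below Pcp4l1, a close relative with the same kind of calmodulin-binding motif, by a log2 ratio of -7.71 ± 0.66. Pcp4l1 stood at 427, 286, 267 and 265 CPM, and the ratio held in 4 of 4 libraries. Calb1 lay below the calcium buffers Calb2 (-2.04 ± 1.12) and Pvalb (-3.79 ± 0.66), and Aldoc below Aldoa, the aldolase of most tissues (-0.96 ± 0.50), each in 4 of 4 libraries. Slc1a6 lay below the neuronal glutamate transporter Slc1a1 (-2.63 ± 0.56) and the glial transporters Slc1a2 (-3.20 ± 0.69) and Slc1a3 (-1.33 ± 0.64) in 4 of 4 libraries. It lay above Slc1a7, which had 2 counts in all.

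Gng13 was low among the gamma subunits. Gng3 at 539.5 ± 89.9 and Gng2 at 105 ± 32.5 CPM per kb led the 11 relatives, and Gng13 lay below them by -7.21 ± 0.87 and -4.81 ± 0.82 in 4 of 4 libraries. Gng13 exceeded Gng5 by 1.62 ± 1.13 in 4 of 4 libraries, a direction that turned without division by length. Gngt1 and Gngt2, the gamma subunits of photoreceptors, had no count in any library. Gng8, Gng10, Gng11 and Gng12 did not differ from Gng13 in 1 direction in all libraries. Ppp1r17 and the inhibitors Ppp1r1a (0.23 ± 0.99), Ppp1r1b (0.92 ± 1.36) and Ppp1r2 (-0.62 ± 1.02) were likewise not in 1 order across libraries, since Ppp1r17 varied 6.61-fold. It exceeded Ppp1r1c by 5.51 ± 1.25. Prkg1, the kinase that acts on Ppp1r17, stood at 58.9, 52.9, 71.7 and 32.7 CPM, highest and lowest in the same libraries as Ppp1r17.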

How the data were processed

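Ribosome-bound RNA of 4 libraries was analysed. The deposited values are unnormalized counts by gene symbol, 1 file a library. The 5 summary lines at the end of each file, where reads without a feature took 14.1 to 21.1% of the file's total, stayed out of totals and tests. The submitters' processing notes list STAR 2.0.0e, HTSeq and mm10. Annotation and strand use: not given in the sources used here. CPM was taken over all 32531 names. Exon lengths (union of exons) and positions came from GENCODE M21 on GRCm38, which matched 71.2% of names and all 150 listed genes, so lengths were used only between listed genes. A quasi-likelihood test in edgeR 4.0.16 (R 4.3.3) set each library against the remaining 3 (TMM, filterByExpr, robust glmQLFit, glmQLFTest, 2 residual degrees of freedom, threshold 0.05, two-sided); SEs are the log2 fold change over the root of F. Before use the fit was tested on simulated data with 200 genes changed in replicate 4, drawn from genes with a mean above 10 CPM. It recovered 36% of genes changed 4-fold and 74% of those changed 8-fold. A gene that was not called may therefore still differ, and recovery of genes below 10 CPM was not measured. DESeq2 1.42.0, other filters, scalings, lengths and pseudocounts (0.1 and 2), and leaving out replicates were alternatives. A filter that ignores the grouping and a length without shared bases were chosen after seeing the data. The 10 genes, the 24 gene lists and the rule for naming genes (these genes, up to 6 of a list by level or call, families in full where small, and the 5 genes nearest to Pcp2 and to Itpr1) were chosen with earlier results of these data known. Skor2, Lhx5, Lhx1, Arhgef33, Foxp2, Ebf2 and Doc2b, Homer3, Plcb3, Plcb4 and Prkg1, and the larger families beyond that number were named after their values were seen. Some listed genes are counted in their lists but not reported here by name.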

Additional observations from a re-analysis of the deposited data

Results flagged for a closer look

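No library of any of the 10 Purkinje cell genes lay far from the other 3 by Dixon's ratio (highest 0.714, below the 95% critical value for 4 samples). Chance alone gives about 1 in 20 such results. Of the 150 listed genes, 19 had 1 library apart in CPM and 14 on the log2 scale. Of the 24 list sums, 2 did in CPM and 1 on the log2 scale. Related genes with 1 library apart included Dner (362 CPM in replicate 3 against 207 to 225 CPM) and Slc1a1 (158 CPM in replicate 3 against 119 to 123 CPM). In replicate 1, Pcp4l1 (427 CPM against 265 to 286 CPM), Rgs16 (23.3 CPM against 7.37 to 8.46 CPM) and Gng10 (17.6 CPM against 5.56 to 7.37 CPM) were high. In replicate 4, Ebf2 was high (199.8 CPM against 63.3 to 78.2 CPM). Slc1a7 had 0.194 CPM in replicate 2, under the level of 3 counts, and no count elsewhere. The summed midbrain neuron markers stood at 2519 CPM in replicate 1 against 10.6 to 61 CPM, and Tcf7l2 alone was 2486 CPM of that sum. On the log2 scale this sum, Ebf2 and Gng10 had no library apart.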

How the results depend on the processing

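Counts of all genes called depended on the tool and filter. DESeq2 called 25, 5, 91 and 427 genes in replicates 1 to 4, edgeR without a low-count filter 32, 0, 86 and 416, and in replicate 1 a filter that ignores the grouping left 1. In replicate 4 the 7 calls became 0 with totals without TMM and 0 without robust estimation. Leaving out 1 of the other replicates gave 7 to 31, 0 to 2, 1 to 33 and 74 to 125 calls. Of the 10 Purkinje cell genes, 1 (Car8) was called without a filter in replicate 3 and in replicate 4, and 1 by DESeq2 in replicate 4; leaving out a replicate gave 0 to 1 in replicate 3. Fold changes whose sign turned were called under no setting. In replicate 1, leaving out a replicate gave -0.16 to 0.27 for Pcp4 and -0.97 to 0.27 for Ppp1r17. In replicate 2 it gave -0.16 to 0.44 for Calb1, -0.42 to 1.25 for Car8, -0.13 to 0.48 for Aldoc, -0.53 to 0.69 for Itpr1 and -0.58 to 0.78 for Ppp1r17, and DESeq2 gave -0.01 for Car8. Pairs with 1 direction in every library numbered 33 to 40 over the settings. Without division by length the ratio of Aldoc to Rgs8 was -1.05, and 2 in place of 4 genes exceeded all their relatives on the mean log2 ratio alone, a count that takes in Car8 although its direction over Car10 differed between libraries. The cause of these differences was not tested. Of the other comparisons of a result with a setting, 455 were counted as unchanged. For fold changes this means the same sign and call. For levels and ratios of neighbours it means a shift under the SD, and for counts a limited shift in number. A ratio of neighbours within its spread could turn sign and still be counted so. No paired analysis was possible because there is 1 group. At 10 to 134 counts for Pcp2, 10 to 45 for Gng13 and 0 to 11 for Pcp4, depth limits what can be read from these genes.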
